A study of Homo sapiens with 12 samples.

Results

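The transcriptome described here is that of T47D cells of the control line (CTRL) that had received only the vehicle DMSO for 48 h. T47D is a widely used human line of luminal, estrogen receptor-positive breast cancer. The 3 CTRL DMSO libraries were taken by their genotype and treatment labels, out of 12 labelled samples and 11 libraries in the count table. The other samples of the study carried a knockout of NF1, received the PI3K inhibitor BYL719, or both, and none of them enters any value below. All 3 libraries come from 1 control line. How that line was made is not given in the sources used here. The study names 3 experimental replicates without saying whether they were separate cultures, so each SD measures only the spread between these libraries.

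The luminal cells of the breast line the milk ducts, whereas the basal or myoepithelial cells surround them. Luminal identity rests on the transcription factors GATA3, FOXA1 and the estrogen receptor ESR1: FOXA1 opens chromatin for ESR1, and ESR1 in turn activates genes that include the progesterone receptor PGR. Many enzymes, kinases and transcription factors exist as paralogs, closely related genes that arose by duplication, and a cell type often relies on a single one of them. A catalogue of levels in unstimulated cells shows which receptors, isoforms and pathway members such cells have at hand.

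Levels are given as CPM, the counts of a gene relative to the size of its library, scaled by TMM over the 3 libraries, and as CPM per kilobase of merged exons wherever genes are set against each other, each with its SD over the 3 libraries. A gene was taken as detected when it reached at least 1 CPM in all 3 libraries. The libraries held 56862412, 55149233 and 53837445 counts, of which genes of ribosomal RNA took 8.45%, 10.4% and 10.6%. Identical counts in every library were found for 12 ribosomal RNA genes in 3 groups, namely the copies of the 18S and of the 5.8S gene and a pair of 45S copies, while the other 45S and the 28S copies differed. A further 54 genes in 22 groups with at least 1000 counts had identical counts, among them GAGE4, GAGE5, GAGE6, GAGE7, GAGE12I and GAGE12B. The values of such copies are not separate measurements, and levels of near-identical genes are uncertain. The ribosomal RNA percentages sum over all these entries, some nearly equal, such as RNA28SN2 and RNA45SN2 with 750930 and 750320 counts in replicate 1. They may therefore exceed the share of reads. A gene with 0 counts in all 3 libraries could still lie at up to 0.0181 CPM, the level of 3 counts in the summed libraries, which covers counting error only.

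Replicate 1 stood apart from the others. Over 13277 genes with a mean of at least 1 CPM, the log2 difference between libraries had an SD of 0.27 for replicates 1 and 2, 0.28 for replicates 1 and 3, and 0.14 for replicates 2 and 3. More than 1.5-fold differences separated replicate 1 from replicate 2 in 551 genes and from replicate 3 in 633 genes, against 50 genes between replicates 2 and 3. The biological coefficient of variation, edgeR's estimate of the relative spread beyond counting error, was 0.105 with all libraries and 0.0441 without replicate 1. The difference went with transcript length. Among protein-coding genes of at least 10 CPM, replicate 1 lay below the mean of replicates 2 and 3 by a median of 0.25 on the log2 scale for the 217 genes whose longest transcript is under 1 kb. It lay above that mean by a median of 0.26 for the 187 genes of 12 to 20 kb and by 0.48 for 16 genes of 20 kb or more. The corresponding medians for replicate 2 minus replicate 3 were 0.03, -0.11 and -0.24. The cause was not tested.

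**Figure D1:**
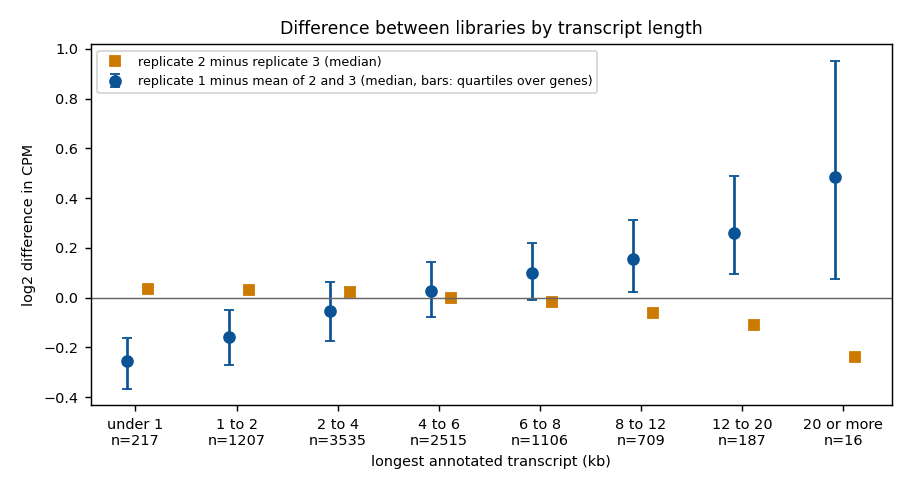
Median log2 difference in CPM between libraries (y axis) by class of longest annotated transcript in kb (x axis), for protein-coding genes of at least 10 CPM, with the number of genes under each class. Circles are replicate 1 minus the mean of replicates 2 and 3, with bars from the lower to the upper quartile over genes, and squares are replicate 2 minus replicate 3. Replicate 1 runs from -0.25 in the shortest class to 0.48 in the longest, which holds 16 genes.

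Among genes with a mean of at least 4 CPM, the 10 with the widest range between libraries were each highest in replicate 1. They were NEB, SYNE2, CENPE, KANTR, CMYA5, CCDC18, GOLGB1, MKI67, PCLO and CENPF. SYNE2, which encodes a giant nesprin of the nuclear envelope, had 487, 146 and 189.5 CPM. MKI67, the source of the Ki-67 proliferation antigen, had 549, 209 and 235 CPM, and CENPF, a large kinetochore protein, had 893, 356 and 393 CPM. In each of them replicates 2 and 3 lay nearer to each other than to replicate 1. NEB overlaps RIF1 and CCDC18 overlaps TMED5, partners that had more counts, so reads of the partner may have been counted for them.

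The cells held RNA of a wide but bounded set of genes. Of 27864 genes in the table, 13059 (46.9%) were detected and 7815 (28%) had 0 counts in all 3 libraries. Of the 19122 protein-coding genes, 12016 (62.8%) were detected and 3122 (16.3%) had 0 counts. The median protein-coding gene lay at 9.74 CPM, and the median over all genes at 0.558 CPM. At least 100 CPM were reached by 2238 protein-coding genes and at least 1000 CPM by 46. The 25 most abundant protein-coding genes took 6.34% ± 0.206 of protein-coding counts (SD, n = 3), and the 1000 most abundant took 46.4% ± 0.535.

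The top of the list combined the general machinery of a growing cell with the keratins of a simple epithelium. On the length-corrected scale the highest genes were ACTB and ACTG1, the cytoplasmic actins, at 1235 ± 164 CPM per kilobase and 1006 ± 111 CPM per kilobase, with the constitutive HSP70 chaperone HSPA8 between them at 1012 ± 120.1 CPM per kilobase. KRT19, a keratin of simple epithelia, ranked 4th among protein-coding genes at 894 ± 102.6 CPM per kilobase. S100A11, a calcium-binding protein, was at 892 ± 106 CPM per kilobase, TUBB, a beta tubulin, at 824 ± 33.3 CPM per kilobase, and CRABP2, which carries retinoic acid to its nuclear receptors, at 790.2 ± 58.7 CPM per kilobase. TMSB4X, an actin-binding thymosin, had 779 ± 87 CPM per kilobase and the chaperone HSP90AB1 had 742 ± 25 CPM per kilobase. A member of the GAGE group, GAGE12B, followed at 724 ± 57.2 CPM per kilobase, with counts identical to those of 5 other GAGE genes.

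By plain CPM, which is the share of the library a gene takes, the 25 leading genes included PRLR, TFRC, SLC7A5, XBP1 and SCD. PRLR, the receptor for the milk hormone prolactin, had 2759.6, 2247 and 2565 CPM and ranked 7th. TFRC, the transferrin receptor that imports iron, had 2138, 2208 and 2022 CPM. SLC7A5, which brings large neutral amino acids such as leucine into the cell, had 1726, 1708 and 1608 CPM. SCD, the desaturase that makes monounsaturated fatty acids, had 1251, 1338 and 1489.9 CPM. No library was lowest throughout: PRLR was lowest in replicate 2, TFRC and SLC7A5 in replicate 3 and SCD in replicate 1. Others of the 25 were HSPA8, ACTB, KRT8, ACTG1, TUBB, HSP90AA1, HSP90AB1, RPLP0, TUBA1B, KRT19, EEF2, PKM, KRT18, TMBIM6, EEF1A1, ATP5F1B, RPL4, CLTC and HNRNPA2B1.

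For these cells, labelled as the T47D line, 4 markers of luminal, hormone receptor-positive cells were given. All 4 were detected in every library, beside 62.8% of all protein-coding genes. Markers of this cell type cannot tell T47D from other lines of the same type. PGR had 882, 810.1 and 972 CPM, with a mean of 57.6 ± 5.25 CPM per kilobase. GATA3 had 509, 583 and 649 CPM and a mean of 169 ± 20.4 CPM per kilobase. ESR1 had 351, 301 and 321 CPM and a mean of 23.4 ± 1.82 CPM per kilobase. FOXA1 had 307, 301 and 305 CPM and a mean of 76.4 ± 0.72 CPM per kilobase. Per kilobase GATA3 was highest and ESR1 lowest of them. On GRCh38 the RefSeq gene bodies lie at chr11:101029624-101129813, chr10:8045333-8075198, chr6:151656672-152129619 and chr14:37589552-37595249. PGR ranked 654 and ESR1 ranked 1949 among protein-coding genes per kilobase. In bulk RNA, fewer cells that express a gene and less RNA of it per cell cannot be told apart.

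Of 31 luminal transcription factors listed, 27 were detected and none had 0 counts in all libraries. Their median was 73.2 CPM, against 9.74 CPM over all protein-coding genes, of which 62.8% were detected. XBP1, a factor of the secretory pathway, led at 457 ± 53.6 CPM per kilobase, with 1195, 1481 and 1472 CPM. EHF and SPDEF, both ETS factors of epithelia, had 104 ± 0.918 CPM per kilobase and 86.8 ± 12.5 CPM per kilobase. TRPS1, a GATA-type repressor of breast epithelium, had 65.6 ± 5.42 CPM per kilobase, TFAP2C, an AP-2 factor that acts with ESR1, 55 ± 2.19 CPM per kilobase, and GRHL2, a guardian of epithelial junctions, 30.9 ± 2.7 CPM per kilobase. ELF5, the factor of the alveolar lineage, had 82.8, 89.5 and 89.5 CPM. At the low end, PRDM1 had 1.18 CPM, and BATF2, HNF4G and CITED1 lay at 0.224, 0.103 and 0.0996 CPM.

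Of the luminal surface, adhesion and secreted proteins, 27 of 30 (90%) were detected, with a median of 164 CPM. The values over all protein-coding genes were 62.8% and 9.74 CPM. After KRT19 the other simple keratins KRT8 and KRT18 stood at 569 ± 59.3 CPM per kilobase and 560.1 ± 60.3 CPM per kilobase, although the annotated bodies of these genes overlap, and reads in the overlap could have been counted for either. CD24, a luminal surface glycoprotein, had 280.2 ± 17.8 CPM per kilobase, AGR2, a disulfide isomerase of secretory cells, 243 ± 32 CPM per kilobase, and CDH1, E-cadherin, 117 ± 1.83 CPM per kilobase. MUC1, a membrane mucin, was at 549.6 ± 78.1 CPM and EPCAM, an epithelial adhesion molecule, at 133 ± 4.86 CPM.

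The secreted markers of breast epithelium were uneven. PIP, a prolactin-inducible secreted protein, had 83.2, 112 and 141 CPM. GREB1, an estrogen-induced gene, had 449, 406 and 449.6 CPM. By contrast TFF1, a trefoil peptide that is a textbook estrogen target, had 3.26, 3.09 and 5.44 CPM, and TFF3 had 13.7, 19.7 and 26.3 CPM. All 3 secreted peptides PIP, TFF1 and TFF3 were highest in replicate 3. The mammaglobin gene SCGB2A2, its partner SCGB1D2 and the breast differentiation antigen ANKRD30A were below detection at 0.121, 0.030 and 0.226 CPM.

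**Figure D2:**
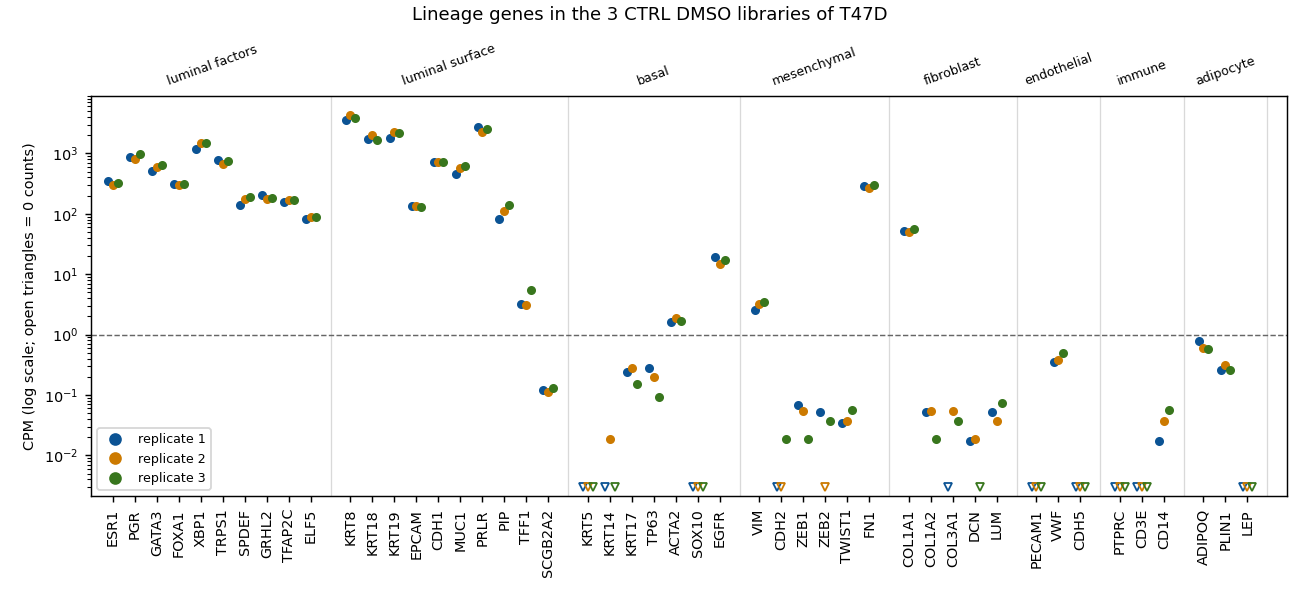
CPM on a log axis (y axis) of lineage genes (x axis, by group) in each of the 3 CTRL DMSO libraries, 1 point per library, with open triangles for 0 counts and a dashed line at the detection minimum of 1 CPM. The luminal factors shown lie between 82.8 and 1481 CPM, TFF1 and SCGB2A2 are the lowest luminal surface genes, and among the genes of other lineages FN1, COL1A1 and EGFR stand above 10 CPM.

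Of 20 basal and myoepithelial genes 8 (40%) were detected, with a median of 0.206 CPM, against 62.8% and 9.74 CPM over all protein-coding genes. KRT5 and SOX10 had 0 counts in all libraries, KRT14 had 1 count in replicate 2 only, and TP63, the master factor of basal epithelium, had 0.276, 0.202 and 0.0935 CPM. The highest members were ITGB4 and ITGA6, which pair as the integrin of hemidesmosomes, at 119 ± 13.5 CPM and 51.2 ± 2.78 CPM, and the P-cadherin gene CDH3 at 62.9 ± 3.86 CPM. ITGB4 overlaps GALK1, which had 24% as many counts. LAMB3, FOXC1 and KRT15 lay between 4.23 and 5.12 CPM. EGFR, the epidermal growth factor receptor, had 19.5, 14.6 and 17.4 CPM. ACTA2, smooth muscle actin, had 1.72 CPM, in a position that overlaps the more abundant FAS.

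Of 14 mesenchymal genes 5 (35.7%) were detected, with a median of 0.0364 CPM, against 62.8% and 9.74 CPM over all protein-coding genes. FN1, fibronectin, had 284, 271 and 302 CPM and CD44, the hyaluronan receptor, had 195, 184 and 187 CPM. FN1 overlaps ATIC, which had 80.9% as many counts. VIM, the intermediate filament of mesenchymal cells, had 2.57, 3.23 and 3.42 CPM. SNAI2, TWIST2, PRRX1 and FOXC2, factors of epithelial-mesenchymal transition, had 0 counts, and ZEB1, ZEB2 and TWIST1 lay between 0.0297 and 0.0476 CPM.

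Markers of cell types that surround a tumour, and that a cell line should lack, were mostly near 0 CPM. Detection reached 62.8% over all protein-coding genes. Of 14 immune markers only CD68 was detected, at 1.44 CPM in a position that overlaps a gene with more counts, and PTPRC, the pan-leukocyte antigen, and CD3E had 0 counts. CD8A lay just below the minimum at 0.958 CPM. The summed level of the 14 immune genes was 4.0, 4.17 and 4.04 CPM. Of 8 endothelial markers ESAM was detected at 2.3 CPM, whereas PECAM1, CDH5, CLDN5 and EMCN had 0 counts. ESAM overlaps a gene that had 26.6% as many counts. None of 5 adipocyte markers was detected. Among 10 fibroblast markers only COL1A1 was, at 52.1, 49.8 and 55.6 CPM. Its partner chain COL1A2, with which it forms type I collagen, lay at 0.0517, 0.0551 and 0.0187 CPM, and DCN, LUM, COL3A1 and POSTN were all under 0.1 CPM. Of 10 neural markers 5 were detected, with TUBB3, a beta tubulin, at 41.3 CPM and ENO2, an enolase, at 18.7 CPM. CHGA, GFAP, OLIG2 and NEUROD1 had 0 counts.

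An exception among the markers of other tissues was albumin. ALB, the main serum protein made by the liver, had 526, 737 and 687 CPM in the 3 libraries, with a mean of 192 ± 32.6 CPM per kilobase. It ranked 106 among protein-coding genes per kilobase, between PRLR at rank 105 and PIP at rank 108. Replicate 1 was the lowest library, and without it the mean was 712 CPM. Its RefSeq gene body lies at chr4:73404287-73421482 on GRCh38, and no gene with at least 20% of its counts overlaps it. The other liver genes of the list were low: APOB and TTR had 0 counts, APOA1 had 0.00623 CPM and HNF4A, a master factor of hepatocytes, had 0.0306 CPM. LIN28A, an RNA-binding protein of embryonic stem cells that blocks let-7 maturation, had 57.9, 39.3 and 43.2 CPM, while the pluripotency factors POU5F1 and NANOG lay at 0.0119 and 0.023 CPM. The other 18 of the 20 markers of other tissues were below detection, 9 of them at 0 counts.

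Of 48 nuclear receptors 31 (64.6%) were detected, with a median of 7.78 CPM, against 62.8% and 9.74 CPM over all protein-coding genes. Per kilobase PGR and ESR1 led, followed by the orphan receptors NR2F2 at 17.9 ± 0.25 CPM per kilobase and NR2F6 at 17.2 ± 0.525 CPM per kilobase, the retinoic acid receptor RARA at 16.7 ± 1.77 CPM per kilobase and the vitamin D receptor VDR at 13.2 ± 1.35 CPM per kilobase. Within the 6 steroid hormone receptors PGR made up 61.7% ± 2.36 of the family sum and ESR1 25.1% ± 1.4, against 2.95% ± 0.315 for the glucocorticoid receptor NR3C1. ESR2, the beta estrogen receptor, had 4.07, 3.01 and 2.99 CPM, so that ESR1 held 98.5% ± 0.168 of the estrogen receptor sum. The bile acid receptor NR1H4 lay at 0.0115 CPM, and the xenobiotic receptor NR1I2 had 0 counts.

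Of 58 receptor tyrosine kinases 33 (56.9%) were detected and 7 had 0 counts, against 62.8% detected over all protein-coding genes. DDR1, a collagen receptor, had 48.7 ± 4.05 CPM per kilobase, ERBB3, which binds neuregulin but has little kinase activity of its own, 44.4 ± 1.34 CPM per kilobase, and ERBB2 (HER2), its partner without a known ligand, 25.4 ± 1.92 CPM per kilobase. The libraries held 398, 392 and 415 CPM of ERBB3 and 239, 269.5 and 277 CPM of ERBB2. The other members of that family were lower per kilobase, EGFR at 1.37 ± 0.197 CPM per kilobase and ERBB4 at 1.09 ± 0.0478 CPM per kilobase. EPHB3 and EPHB4, receptors for ephrins, had 21.7 ± 1.88 CPM per kilobase and 18.8 ± 1.05 CPM per kilobase. FGFR2 led the fibroblast growth factor receptors at 14.2 ± 1.17 CPM per kilobase, with FGFR1 at 2.52 ± 0.194 CPM per kilobase. IGF1R, the receptor for insulin-like growth factor, had 11 ± 1.26 CPM per kilobase, against 1.13 ± 0.0339 CPM per kilobase for the insulin receptor INSR. KIT, KDR, PDGFRA and FLT3 were each under 0.1 CPM, and ALK and ROS1 had 0 counts.

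The ligands were scarcer than the receptors, with 17 of 37 (45.9%) detected and a median of 0.730 CPM. The values over all protein-coding genes were 62.8% and 9.74 CPM. KITLG, the ligand of KIT, led at 15 ± 0.962 CPM per kilobase, with 92.8, 99.1 and 87.2 CPM. VEGFB, a vascular growth factor, had 13.1 ± 2.03 CPM per kilobase, PDGFB, a platelet-derived growth factor, 11 ± 1.16 CPM per kilobase, and the EGFR ligands TGFA, EGF and AREG had 25.2, 20.7 and 12.9 CPM. NRG1, a ligand of ERBB3, lay at 0.0122 CPM, HGF, the ligand of MET, at 0.0368 CPM, and IGF1, FGF2, FGF10 and GDNF had 0 counts. IGF1R, ERBB3 and MET were thus detected without detection of IGF1, NRG1 or HGF.

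Cytokine and hormone receptors were detected in 40 of 54 cases (74.1%), against 62.8% of all protein-coding genes. PRLR led at 193 ± 19.8 CPM per kilobase, followed by IL6ST, the shared signal chain gp130 of the interleukin-6 family, at 45.7 ± 3.16 CPM per kilobase, the interferon gamma receptor chain IFNGR2, which TMEM50B overlaps, at 20.5 ± 1.79 CPM per kilobase, and the growth hormone receptor GHR at 19.7 ± 0.827 CPM per kilobase. The chains of the TGF-beta receptor stood apart. TGFBR1 had 46.8, 47.9 and 49.4 CPM, whereas TGFBR2, the chain that binds the ligand first, had 0.0172, 0.0367 and 0.0748 CPM. The lymphocyte receptors IL2RA, IL2RB and IL7R had 0 counts.

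Of 64 G protein-coupled receptors and related genes 28 (43.8%) were detected and 17 had 0 counts. The shares over all protein-coding genes were 62.8% detected and 16.3% at 0 counts. FZD6, a Frizzled receptor for WNT, led at 23.4 ± 1.68 CPM per kilobase, ahead of GRPR, the receptor for gastrin-releasing peptide, at 20.1 ± 1.33 CPM per kilobase and the adhesion receptor CELSR1 at 14.1 ± 1.53 CPM per kilobase. PTGER3, a prostaglandin E2 receptor, had 67.4 ± 1.76 CPM. Of the 15 Notch, WNT and Hedgehog pathway genes 11 (73.3%) were detected. NOTCH3 and NOTCH2 lay at 15.2 ± 1.67 CPM per kilobase and 15 ± 0.805 CPM per kilobase, with overlapping ranges over the libraries, and NOTCH1 had 2.09 ± 0.138 CPM per kilobase and NOTCH4 0.0965 CPM. LGR5, a stem cell marker, had 0 counts, whereas its relative LGR4 had 60.2 ± 2.06 CPM.

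Of 25 enzymes of steroid hormone metabolism 14 (56%) were detected, against 62.8% of all protein-coding genes. CYP1B1, which hydroxylates estradiol, had 156, 141 and 138 CPM. CYP19A1, the aromatase that makes estrogens from androgens, had 0 counts. CYP17A1 and CYP11A1, the early enzymes of steroid synthesis, lay at 0.0115 and 0.00623 CPM. STS, which frees estrone from its sulfate, had 14.6 ± 1.14 CPM but overlaps PUDP, and HSD17B1, which reduces estrone to estradiol, had 8.62 ± 0.738 CPM but overlaps a gene with more counts. The estrogen sulfotransferase SULT1E1 had 0 counts.

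Paralog usage was computed as each member's share of the family sum of CPM per kilobase within each library. Of 112 families listed, 111 had at least 1 detected member and together held 417 members, while the caveolins had none. In 21 families 1 member held at least 90% of the sum, in 91 at least 50%, and in 106 the same member led in all 3 libraries. Only 1 member was detected in 11 families and all members in 57. A share of 90% or more was reached in 9 of 19 metabolic families, 5 of 22 of transcription factors, 2 of 12 of the cell cycle and 2 of 27 in signalling. Since merged exons inflate the length of genes with unusual transcripts, the leading member was recomputed with the longest transcript and with the coding length, and it was the same under both in 96 families. Of the members named below, MAP2K1, RASA1, PIK3CD, SGK3, CDK4, CCNE2, CCNA2 and PFKM overlap another gene that had at least 20% of their counts.

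**Figure D3:**
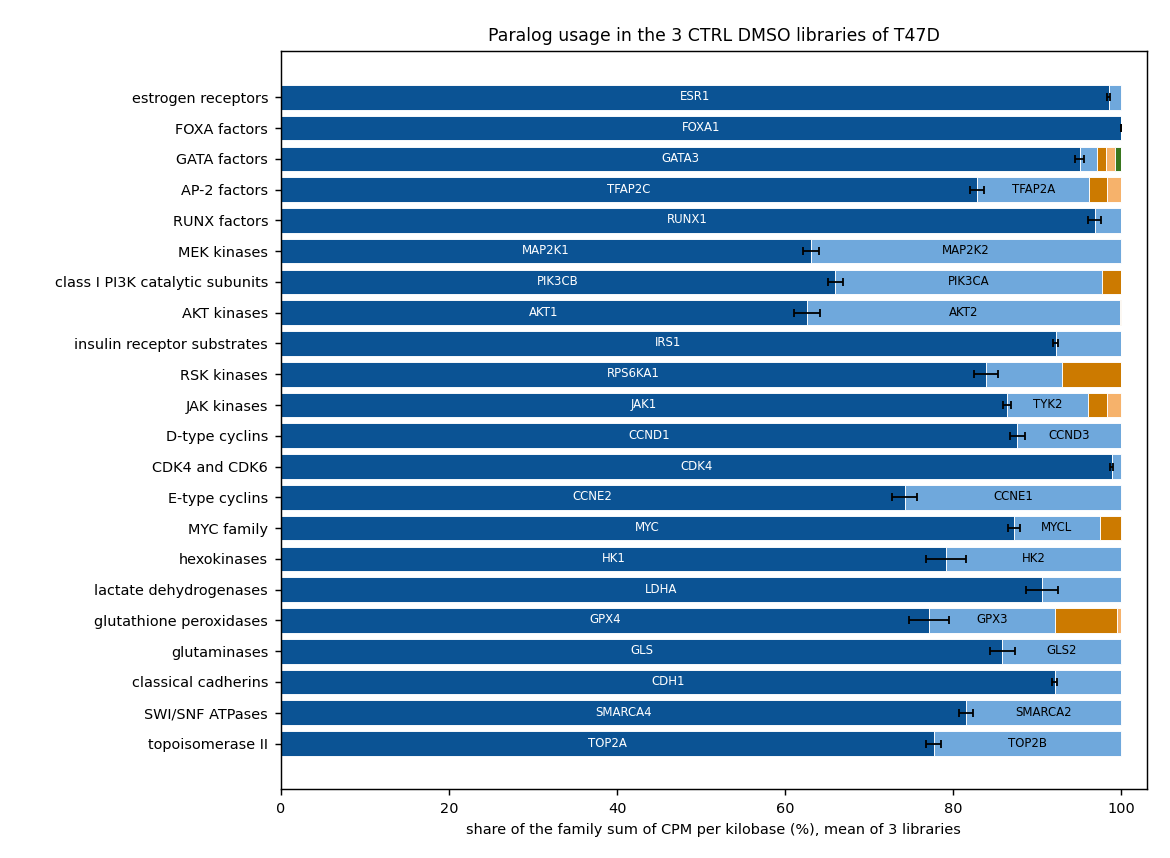
Share of each member in the family sum of CPM per kilobase (x axis, %, mean of 3 CTRL DMSO libraries) for 22 families (y axis). Each segment is 1 member, the leading member first, and the black bar is the SD of its share (n = 3). FOXA1, CDK4 and ESR1 take nearly the whole of their families, while MAP2K1 and AKT1 take 63.1% and 62.6%.

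Along the RAS and MAP kinase pathway MAP2K1 held 63.1% ± 0.917 of the MEK sum, with the rest in MAP2K2. NF1, neurofibromin, the gene knocked out elsewhere in the study, had 289.8, 211 and 252 CPM and held 36.8% ± 2.86 of the 6 RAS GTPase-activating proteins, ahead of RASA1 with 27.6% ± 1.94. In the RSK family RPS6KA1 held 83.9% ± 1.41, while RPS6KA3, on the X chromosome at chrX:20149911-20267097, had 2, 1 and 0 counts.

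In the PI3K pathway PIK3CB held 66% ± 0.897 of the catalytic sum and PIK3CA, the alpha subunit that BYL719 inhibits, 31.7% ± 1.03. Their levels were 15.7 ± 0.158 CPM per kilobase and 7.56 ± 0.41 CPM per kilobase, and PIK3CB was higher in 3 of 3 libraries. PIK3CA itself had 75.2, 72.5 and 67.5 CPM. The leukocyte subunit PIK3CD held 2.35% ± 0.146, and PIK3CG had 0 counts. Of the adaptors IRS1 held 92.2% ± 0.266 and IRS2 7.82% ± 0.266, and IRS4 had 0 counts. AKT1 held 62.6% ± 1.53 and AKT2 37.3% ± 1.54, an order that turned round with the longest transcript, under which AKT2 held 55.9%. SGK3, a related kinase that binds phosphoinositides, held 96.5% ± 0.54 of the SGK sum, against 3.45% ± 0.547 for SGK1. The counts of SGK3 were nearly those of the readthrough gene that contains it.

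Among cell cycle genes, CCND1, cyclin D1, held 87.6% ± 0.895 and CCND3 the rest, and CCND2 had 0 counts. CDK4 held 98.8% ± 0.168 over CDK6, at 54.3 ± 4.15 CPM per kilobase against 0.641 ± 0.0498 CPM per kilobase. Both encode kinase partners of D-type cyclins, and CDK4 was higher in 3 of 3 libraries. CCNE2 held 74.2% ± 1.53 of cyclin E, and CCNA2 held 99.996% ± 0.00684 of cyclin A. Among the INK4 inhibitors of CDK4, CDKN2C held 51.5% ± 0.478 and CDKN2A, the p16 gene, 8.75% ± 1.12, with 9.05 ± 1.61 CPM. MYC held 87.2% ± 0.673 of its family.

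In the transcription factor families FOXA1 took 99.981% ± 0.0166 of its family and GATA3 95% ± 0.497. RUNX1 held 96.8% ± 0.768 while RUNX3 had 0 counts, GRHL2 82.6% ± 0.569 and TFAP2C 82.8% ± 0.878. NCOA3 (AIB1), a coactivator of the estrogen receptor, held 62.7% ± 0.85 of the steroid receptor coactivators. The AP-1 subunits were led by JUND with 49.4% ± 1.75 and FOSL2 with 87.9% ± 2.17. FOS itself held 5.29% ± 1.04. Of 10 families of chromatin regulators none had a member at 90% or more, 9 had a member at 50% or more, and all members were detected in 8. SMARCA4 held 81.5% ± 0.857 of the SWI/SNF ATPases. Of the DNA methyltransferases DNMT3A held 1.84% ± 0.23, against 34.6% ± 1.41 for DNMT3B.

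Among survival factors MCL1 held 50.2% ± 1.82 and BCL2L1, which encodes BCL-XL, 43.9% ± 2.7, whereas BCL2, the founding member, held 0.162% ± 0.0207, with 2.16, 2.46 and 2.94 CPM. BIRC5, survivin, held 78.1% ± 2.99 of the inhibitors of apoptosis.

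In several families of glycolysis the members that most tissues use prevailed. PKM held 99.998% ± 0.00291 of pyruvate kinase, PGAM1 99.8% ± 0.0921, ENO1 98.2% ± 0.168 and ALDOA 92.5% ± 0.494. HK1 held 79.1% ± 2.4 and HK2 20.8% ± 2.39. The phosphofructokinases were more divided, with PFKP at 50.2% ± 0.671 and PFKM at 26% ± 1.22. In the lactate dehydrogenases LDHA held 90.6% ± 1.88, while LDHB, the other subunit of the enzyme and present in most tissues, had 1, 0 and 0 counts. The rest belonged to LDHD, an enzyme of D-lactate. GPX1, the cytosolic glutathione peroxidase that most cells contain, had 1, 0 and 1 counts, and GPX4, which removes lipid peroxides, held 77.1% ± 2.34 of that family. ACACA held 97.1% ± 0.28 of acetyl-CoA carboxylase and SOD1 89.5% ± 0.644 of superoxide dismutase. In 3 cytochrome c oxidase pairs the muscle or lung isoforms COX4I2, COX6A2 and COX7A1 held at most 0.0144% of the sum.

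In the structural families CDH1 held 92% ± 0.339 of the classical cadherins and CDH3 7.95% ± 0.338, while CDH4, CDH5 and CDH6 had 0 counts. ACTB and ACTG1 divided the actins at 55% ± 0.685 and 44.9% ± 0.682. Among the claudins of tight junctions CLDN4 and CLDN7 lay at 32.2% ± 0.711 and 31.2% ± 0.896, and CLDN7 led with the longest transcript. CAV1, the coat protein of caveolae, had 1, 1 and 0 counts.

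HOX genes, which set position along the body axis, were detected mainly in 1 cluster. Of 39 members 13 (33.3%) were detected, against 62.8% of all protein-coding genes. These were 7 of 9 in the HOXC cluster on chromosome 12, 4 of 10 in HOXB, 2 of 11 in HOXA and none of 9 in HOXD. The summed HOXC level, not corrected for length, was 179, 181 and 181 CPM, against 23.5, 22.3 and 22 CPM for HOXB, 9.47, 8.60 and 8.69 CPM for HOXA and under 1 CPM for HOXD. HOXC10 alone had 112, 116 and 118 CPM. HOXC13 had 29.4, 29.3 and 27.2 CPM and HOXC11 16.1, 18.3 and 19.3 CPM, whereas HOXC12, which lies between them in number, had 0.0477 CPM. Several HOXC and HOXA genes overlap a neighbour or an antisense RNA, among them HOXC4, HOXC5, HOXC6 and HOXC11, and their separate levels are less certain than the cluster sums.

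**Figure D4:**
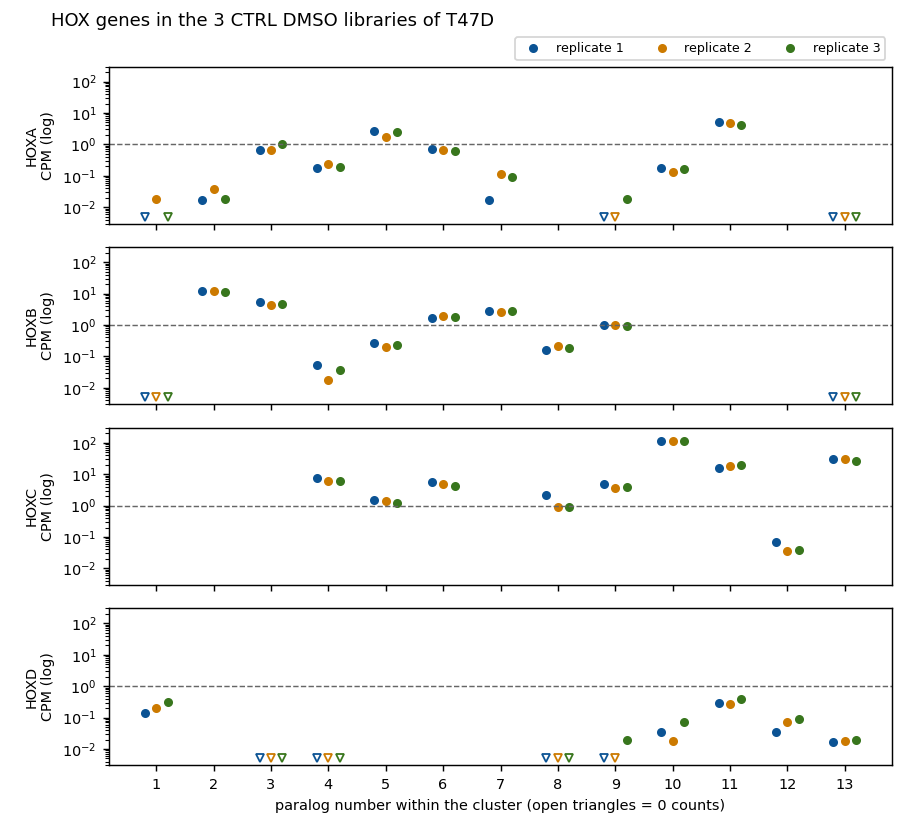
CPM on a log axis (y axis) of the HOX genes by paralog number (x axis) in the 4 clusters, 1 panel per cluster and 1 point per CTRL DMSO library, with open triangles for 0 counts and a dashed line at 1 CPM. HOXC10 stands highest at about 115 CPM, and all HOXD genes lie below 1 CPM.

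Cancer-testis antigens, normally made in germ cells and switched on in many tumours, were detected in 13 of 32 cases (40.6%). This share was below the 62.8% of all protein-coding genes. XAGE1B had 259.9, 289.9 and 276 CPM, counts that it shares in full with XAGE1A. MAGEA6, MAGEA12 and MAGEA3, closely similar genes of the X chromosome, had 80.6 ± 2.13 CPM, 72.9 ± 2.75 CPM and 54.2 ± 2.43 CPM. PRAME, a tumour antigen that represses retinoic acid signalling, had 65.7, 69.4 and 70.9 CPM. SSX2 had 57.8 ± 3.66 CPM, with counts identical to those of SSX2B. CTAG1B, the NY-ESO-1 antigen, had 0.00623 CPM, and CTAG2, SYCP1 and CTCFL had 0 counts.

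Gene families selected by their symbols differed widely in how many members were silent. Of 376 olfactory receptors 343 (91.2%) had 0 counts and 1 was detected, OR8G5 at 3.01 ± 0.169 CPM. Of 93 keratin-associated proteins of hair 86 had 0 counts and none was detected, and all 18 late cornified envelope proteins of skin and all 17 type I interferons had 0 counts. Of 39 beta-defensins 36 had 0 counts. Of secreted immune signals, 2 of 39 interleukins were detected, IL18 at 5.29 ± 0.835 CPM and IL20 at 1.3 ± 0.138 CPM, and 5 of 42 chemokines. CXCL12, the ligand of CXCR4, was the highest of them at 436, 398 and 378 CPM, while CXCR4 had 5.73, 6.52 and 6.49 CPM. Against these stood families in near-constant use, with all 75 mitochondrial ribosomal proteins, 46 of 48 proteasome subunits and 452 of 507 zinc finger genes detected. Over all protein-coding genes the share detected was 62.8%, and 16.3% had 0 counts.

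Other large families fell between these ends, beside a share of 62.8% detected over all protein-coding genes. Of 375 solute carriers 213 (56.8%) were detected, with SLC7A5 at 354 ± 13.4 CPM per kilobase. SLC9A3R1 and SLC25A5, at 352 ± 24.4 CPM per kilobase and 295 ± 24.9 CPM per kilobase, lay above SLC40A1. The latter, the iron exporter ferroportin, had 151 ± 21.3 CPM per kilobase. Of 56 cytochrome P450 enzymes 13 were detected, led by CYP51A1 of cholesterol synthesis at 31.7 ± 1.4 CPM per kilobase and CYP1B1 at 24.1 ± 1.6 CPM per kilobase. Of 44 collagens 12 were detected, COL12A1 highest at 13.6 ± 1.14 CPM per kilobase. Of 53 clustered protocadherins, adhesion molecules best known from neurons, 51 were detected with a median of 30.6 CPM. Members of the alpha and of the gamma cluster, but not of the beta cluster, share constant exons, so reads there may have been entered for many members at once. In the gamma cluster PCDHGA2, PCDHGA5 and PCDHGB7, whose annotated bodies end at the same base, had 56.6, 56.4 and 56.2 CPM. Of 34 MAGE genes 12 were detected, led by MAGED2 at 97.5 ± 12.7 CPM per kilobase and MAGED1 at 57.7 ± 6.0 CPM per kilobase, which, unlike most of the family, are made in many normal tissues.

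The composition of promoters differed between level classes. CpG islands, stretches rich in the dinucleotide CG, mark the promoters of most broadly used genes, whereas a TATA box lies just before the start of many genes under tight tissue control. In RefSeq windows of 250 bases before to 50 after the start, matched for 15307 protein-coding genes, the ratio of observed to expected CpG exceeded 0.6 in 23.6% of genes with 0 counts, 41.9% of those below 1 CPM, 72.2% of those at 1 to 10 CPM, 86.6% at 10 to 100 CPM, 89.8% at 100 to 1000 CPM and 86.8% of 38 genes at 1000 CPM or more, against 66.9% of all windows. Without the olfactory receptors the share in genes with 0 counts was 26.5%. A ratio of 0.75 was exceeded in 15.3%, 28.8%, 55%, 71.3%, 76.1% and 78.9% of the classes, from 0 counts upwards, and in 53% of all windows. The letters TATAAA, searched on the gene's strand within 50 bases before the start, were found in 10.2%, 6.78%, 2.78%, 1.03%, 1.7% and 10.5% of these classes in the same order, and in 3.87% of all windows. On either strand of the whole window they were found in 22.4% of genes with 0 counts and 4.58% of those at 10 to 100 CPM. Both ends of the range thus held the motif most often, though the top class had only 4 genes with it. Genes are not independent replicates, and these shares carry no test.

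**Figure D5:**
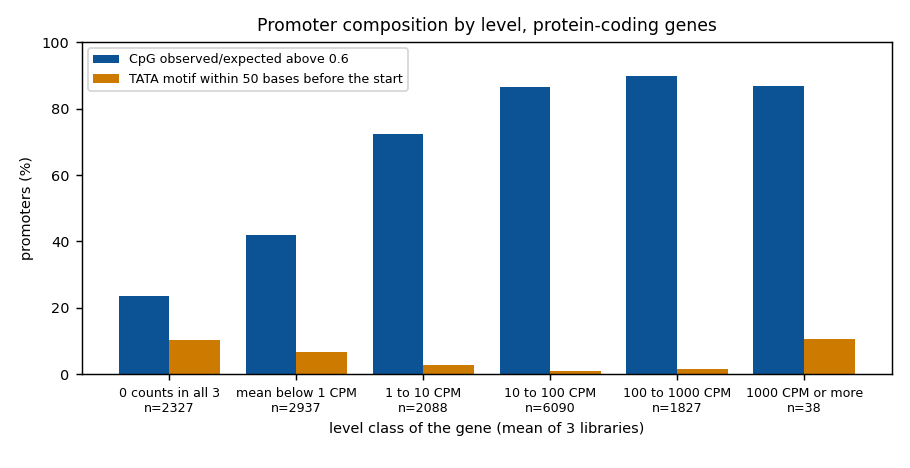
Share of promoters in % (y axis) by level class of the gene (x axis, mean CPM of 3 libraries, with the number of genes), for a CpG observed/expected ratio above 0.6 and for the TATA motif within 50 bases before the start. The CpG bar is 23.6% at 0 counts and 89.8% at 100 to 1000 CPM, and the motif bar is lowest at 10 to 100 CPM with 1.03%.

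Windows of 4 genes show these kinds of promoter, from RefSeq on GRCh38.p14, each 5′ to 3′ on the gene's strand, with capitals for CpG dinucleotides and for TATAAA within 50 bases before the start. FOXA1, a marker of the cells, has a window at chr14:37595200-37595499 on the minus strand with 34 CpG and a ratio of 0.966. EEF2, the elongation factor of translation with 2051 ± 212 CPM, has a window at chr19:3985414-3985713 on the minus strand with 41 CpG, a ratio of 1.36 and the motif 30 bases before the start. LDHB, with 1 count in all, has a window at chr12:21657793-21658092 on the minus strand with 14 CpG and a ratio of 0.549, below the limit of 0.6. CSN2, the milk protein beta-casein and at 0 counts, has a window at chr4:69965679-69965978 on the minus strand with 2 CpG, a ratio of 0.216 and the motif 28 bases before the start.
FOXA1: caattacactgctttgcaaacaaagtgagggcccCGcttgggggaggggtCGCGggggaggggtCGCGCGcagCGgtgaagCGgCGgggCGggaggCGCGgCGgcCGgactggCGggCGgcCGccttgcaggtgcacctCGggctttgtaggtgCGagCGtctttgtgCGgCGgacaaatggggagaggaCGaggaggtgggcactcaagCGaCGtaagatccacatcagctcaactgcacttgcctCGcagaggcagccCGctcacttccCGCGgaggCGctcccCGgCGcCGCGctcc
EEF2: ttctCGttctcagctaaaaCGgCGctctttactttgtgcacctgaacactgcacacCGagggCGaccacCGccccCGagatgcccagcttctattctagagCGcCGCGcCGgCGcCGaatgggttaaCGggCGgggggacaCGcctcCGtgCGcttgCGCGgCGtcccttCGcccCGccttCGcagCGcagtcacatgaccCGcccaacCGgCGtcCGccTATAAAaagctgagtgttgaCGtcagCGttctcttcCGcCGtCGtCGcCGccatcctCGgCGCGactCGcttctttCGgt
LDHB: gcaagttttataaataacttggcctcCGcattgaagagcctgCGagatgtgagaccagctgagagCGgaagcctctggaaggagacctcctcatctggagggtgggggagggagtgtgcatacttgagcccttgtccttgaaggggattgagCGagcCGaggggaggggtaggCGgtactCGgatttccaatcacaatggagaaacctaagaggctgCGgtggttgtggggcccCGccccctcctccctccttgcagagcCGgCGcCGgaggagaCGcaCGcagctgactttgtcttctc
CSN2: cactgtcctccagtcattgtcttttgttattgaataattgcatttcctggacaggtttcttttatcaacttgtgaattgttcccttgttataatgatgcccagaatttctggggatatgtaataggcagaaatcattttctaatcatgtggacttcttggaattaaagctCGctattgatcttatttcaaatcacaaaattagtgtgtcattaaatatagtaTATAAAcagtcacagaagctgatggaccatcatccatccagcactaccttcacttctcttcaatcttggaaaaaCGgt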

How the data were processed

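Polyadenylated RNA of T47D cells was sequenced with a stranded kit and single reads, per the labels' protocols. The file as deposited gives unnormalised counts for each Entrez identifier. Per the submitters' processing notes, hg38, STAR 2.5.2a, SAMtools 1.7, Picard 2.9.2 and edgeR were used. The counting tool, its strand setting and the annotation are not given in the sources used here, so reads of overlapping or near-identical genes may have been counted for more than 1 gene.

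The 3 CTRL DMSO columns alone were analysed, with no contrast to other groups and no test. CPM used TMM factors computed over these libraries in R 4.3.3 with edgeR 4.0.16, which also gave the dispersion of a model with an intercept only. This step was also run on simulated counts with a single dispersion and no length-related difference between libraries. That run therefore cannot speak to the difference of replicate 1. Merged exon lengths came from GENCODE 29, and positions and promoters from RefSeq on GRCh38, and 99.6% of Entrez identifiers matched. A gene was detected at 1 CPM or more in all 3 libraries. Shares of paralogs were computed per library and averaged. Intervals and floors cover counting error only.

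Named genes were the 4 markers, the 25 highest by CPM and 10 highest by CPM per kilobase, the leading, near-leading and lowest members of lists and families, members of known role in breast cancer cells, and the 10 genes of widest range among those of at least 4 CPM. Pseudogene names and genes that show a sex were left out, and some genes are not reported here. The libraries, gene lists and families were chosen with earlier results of these data known. Members of families selected by symbol were named by their level. Alternatives were DESeq2 1.42.0 size factors, totals without TMM or without ribosomal RNA genes, minimums of 0.5 and 2 CPM, filterByExpr, other gene lengths, a CpG ratio of 0.75 and leaving out each library. Figures used matplotlib 3.10.9.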

Additional observations from a re-analysis of the deposited data

How the results depend on the processing

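No paired analysis was possible because a single group of 3 libraries is described and no test was made. Of 238 recomputed summary values, namely counts of detected and silent genes, list and family counts, promoter counts, the spread and the share of the 25 most abundant genes, 4 changed by more than 1.5 times, or by at least 1 SD between libraries for that share. The biological coefficient of variation ran from 0.0441 without replicate 1 to 0.127 without replicate 2, against 0.105 with all libraries. With totals that leave out ribosomal RNA genes, 2 immune markers were detected in place of 1. At a minimum of 0.5 CPM, 2 olfactory receptors were detected in place of 1, and 1 keratin-associated protein gene in place of 0. At a minimum of 2 CPM, IL20, DEFB126, CCL3L3 and CD68, with means of 1.3, 1.88, 1.27 and 1.44 CPM, would not be detected. The 4 values do not include such changes, so counts of small lists and families rest on the minimum. Nor do they include the share of promoters at 0 counts, 15.3% in place of 23.6% at a CpG ratio of 0.75. The number of detected genes lay between 12243 at a minimum of 2 CPM and 14924 under filterByExpr, against 13059, and genes with 0 counts between 8265 and 8406 when 1 library was left out, against 7815. The number of families with a share of 90% or more lay between 21 and 25. Single family shares rested on the length used: of 111, 77 moved by at least 1 SD between libraries with the longest transcript, 92 with coding length and 93 without length. Shares are computed within a library, so the scaling between libraries cannot change them, and counts of families by share follow from them. Leaving out a library can only raise the number of genes with 0 counts. Some of the 238 values thus had little or no freedom to change. The leading member changed in 15 families under the longest transcript or coding length. Depth limits genes near or below the level of 3 counts, 0.0181 CPM. The cause of the length-related difference of replicate 1 was not tested.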

Other observations

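Among the widest differences between replicates 2 and 3, the pair that lay closest, TBX1, a T-box factor of development, had 4.50, 4.61 and 6.52 CPM in replicates 1, 2 and 3. It was highest in replicate 3, as were PIP, TFF1 and TFF3, and no cause was tested. TBX1 was chosen after its values were seen.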
